A study of Mus musculus with 10 samples.

Results

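The podocyte and slit diaphragm genes described here are Nphs1, Podxl, Synpo, Wt1, Ptpro, Cd2ap, Magi2 and Actn4, which were taken by symbol from a count table of 21010 genes. All 8 genes were in the table, and all 8 passed the filter on low counts that left 15728 genes for the test. Bulk RNA-seq was performed on 5 KM and 5 KMS mice at 20 weeks of age, with 1 library per mouse. KM mice, on a C57BL/6 background, carried Ksp1.3/cre and MYCfl/fl. Their Cre is made from the kidney-specific Ksp (Cdh16) promoter, which is active in tubular epithelium. It switches on overexpression of MYC, which gives polycystic kidneys. KMS mice carried the same alleles plus Setd2fl/fl, so that both groups share the MYC transgene and the Cre and differ in deletion of Setd2, a histone H3K36 methyltransferase. The sources name the RNA in different ways, as kidney tissue, as cysts and neoplastic masses, or as primary tubular epithelial cells. Mice of both sexes were used without a label that tells them apart.

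Podocytes are the epithelial cells that cover the outer face of the glomerular capillaries. Their interlocking foot processes are joined by the slit diaphragm, a filter junction built around nephrin, and an actin network under the junction holds the foot processes in shape. Podocytes lie outside the tubular epithelium in which the Ksp promoter is active.

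Total counts were 10873993 to 14564152 in KM and 16925118 to 25029639 in KMS, without overlap between the groups. Reads of mitochondrial genes took 4.26% to 26.7% of the counts. KMS replicate 5 stood apart, with a TMM factor of 0.642 and a mean Spearman correlation of 0.851 with the other libraries of its group. KM replicates 1 and 2 were closer to each other than any other pair of 1 genotype (Spearman correlation 0.993, against 0.972 at most elsewhere), but differed by more than counting noise, with a chi-square of 7.03 per gene, and were kept as 2 libraries. The mean log2 CPM of 4 Y-linked genes was 4.08 to 6.74 in 4 KM libraries and -2.43 in KM replicate 4, and it was -2.43 to -1.08 in KMS replicates 1 to 3, 4.96 in KMS replicate 4 and 2.34 in KMS replicate 5, so the groups were not matched in these genes. The threshold for a call was an FDR of 0.05 in edgeR's quasi-likelihood test with a change of more than 1.5-fold in either direction, and 16 genes passed it, 4 higher and 12 lower in KMS. Levels are given in CPM, a gene's share of the counts of its library after scaling with TMM factors.

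To find out whether glomerular RNA differed between KM and KMS mice, the 8 genes were compared across the 10 libraries. None of the 8 was called, against 0.102% of all genes tested. At an unadjusted p under 0.05 there was 1 of the 8 genes, Actn4, against 19.5% of all genes tested, and DESeq2, limma-voom and the likelihood ratio test called 0 of the 8 as well. The log2 fold change of KMS against KM was above 0 for 6 and below 0 for 2 of the 8, with a median of 0.51 against 0.06 over all genes tested. That median ranged from 0.01 to 0.88 when 1 library at a time was left out. Libraries of the same genotype differed more widely. KM replicates 4 and 5 and KMS replicates 3 and 4 held the 4 highest values of Nphs1, Podxl, Wt1 and Ptpro alike.

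Nphs1, at chr7:30458315-30487223 on the plus strand of GRCm38 (GENCODE vM21, as for the genes that follow), encodes nephrin, the transmembrane protein that spans the slit diaphragm. Its level was 10.2, 10.7, 6.57, 54.9 and 30.8 CPM in KM replicates 1 to 5 and 12.02, 6.69, 79.8, 61.7 and 4.86 CPM in KMS replicates 1 to 5. The groups overlapped, and each held libraries on both sides of a gap from 12.02 to 30.8 CPM, which left 6 libraries below and 4 above. KM libraries averaged 22.6 ± 20.4 CPM and KMS libraries 33.0 ± 35.1 CPM (SD over 5 libraries each), and the log2 fold change was 0.54 ± 0.82 (SE), with an adjusted p of 0.752 in edgeR. It was 1.18 without KM replicate 4 and turned to -0.08 without KMS replicate 3. The counts behind these levels were 78 to 1351 reads. Exons of Nphs1 overlap those of 2 genes on the other strand, Nphs1os and Rps12-ps4, the latter with 43 to 349 reads per library, and as it is not known whether reads were counted by strand, those in the shared stretch cannot be told apart.

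Podxl, at chr6:31519488-31563981 on the minus strand, encodes podocalyxin, the negatively charged sialomucin that coats the apical face of podocytes and is also made by vascular endothelium. It was measured at 134, 151, 87.1, 696 and 438 CPM in KM replicates 1 to 5 and at 264, 149, 987, 756 and 68.7 CPM in KMS replicates 1 to 5. The same 4 libraries were the highest as for Nphs1, and the range of KM lay within that of KMS. KMS and KM differed by a log2 fold change of 0.56 ± 0.75 (SE, adjusted p = 0.715 in edgeR), and it was 1.14 without KM replicate 4 and 0.05 without KMS replicate 3.

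Ptpro, at chr6:137252319-137463233 on the plus strand, encodes the receptor tyrosine phosphatase GLEPP1 of the apical foot process membrane. Its CPM was 24.7, 31.4, 6.69, 65.1 and 47.8 in KM replicates 1 to 5 and 5.71, 14.5, 85.5, 63.6 and 5.23 in KMS replicates 1 to 5. KMS replicates 1 and 5 and KM replicate 3 were lowest, and the groups overlapped. The means of 35.1 ± 22.3 CPM for KM and 34.9 ± 37.2 CPM for KMS gave a log2 fold change of -0.01 ± 0.79 (SE, adjusted p = 0.996 in edgeR). Its sign was not stable, with values from -0.65 without KMS replicate 3 to 0.34 without KM replicate 4, and it was also above 0 without KM replicate 5 or KMS replicates 1, 2 or 5.

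Wt1, at chr2:105126529-105173616 on the plus strand, encodes the zinc finger transcription factor that mature podocytes keep and that mesothelium also carries. Its CPM was 10.3, 5.97, 4.03, 38.9 and 30.4 in KM replicates 1 to 5 and 17.4, 8.66, 36.4, 38.8 and 4.86 in KMS replicates 1 to 5. High libraries of both genotypes reached nearly the same level, close to 39 CPM at the top. Between the groups the log2 fold change was 0.24 ± 0.70 (SE, adjusted p = 0.883 in edgeR), 0.75 without KM replicate 4 and just under 0 without KM replicate 3 or KMS replicates 3 or 4. The summed level of the 4 mesothelium markers in the table was 27.6 to 161 CPM in KM and 1.18 to 36.8 CPM in KMS. It was lowest in KMS replicates 3 and 4 and highest in KM replicate 5, and Wt1 was high in each of these libraries. Krt19 alone was 138 CPM of the sum in KM replicate 5, and 1.12 and 1.81 CPM in KMS replicates 3 and 4. Whether the sum reads mesothelium, and the part of mesothelium in the level of Wt1, were not tested.

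Synpo, at chr18:60593973-60660142 on the minus strand, encodes synaptopodin, an actin-binding protein of the foot processes. In KM replicates 1 to 5 it stood at 63.5, 78.8, 20.8, 216 and 145 CPM, and in KMS replicates 1 to 5 at 153, 76.0, 221, 231 and 88.3 CPM. KM replicate 3 was the lowest library, and the groups overlapped. Its log2 fold change was 0.55 ± 0.54 (SE, adjusted p = 0.599 in edgeR) and 1.002 without KM replicate 4. KMS replicate 5, the library lowest in Nphs1, held more Synpo than 4 other libraries.

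Cd2ap, at chr17:42792951-42876665 on the minus strand, encodes an adaptor that links nephrin to the cytoskeleton and is made in many other cells. Its level was 169, 172, 206, 259 and 258 CPM in KM replicates 1 to 5 and 256, 244, 189.9, 191 and 73.7 CPM in KMS replicates 1 to 5. Apart from KMS replicate 5, all libraries lay within a narrow band that both groups shared. A log2 fold change of -0.16 ± 0.31 (SE, adjusted p = 0.820 in edgeR) turned to 0.08 without KMS replicate 5.

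Magi2, at chr5:19227036-20704792 on the plus strand, encodes a scaffold with PDZ domains that binds nephrin at the slit diaphragm and is also known from neuronal synapses. It had 25 to 220 reads per library, the fewest of the 8 genes. Its CPM was 3.72, 3.71, 1.48, 8.46 and 3.56 in KM replicates 1 to 5 and 1.73, 3.75, 7.21, 12.1 and 9.22 in KMS replicates 1 to 5. KMS replicates 4 and 5 were higher than all KM libraries and KMS replicate 3 than all but KM replicate 4, and the groups overlapped. The log2 fold change of 0.70 ± 0.55 (SE, adjusted p = 0.508 in edgeR) had the largest size among the 8 genes. It was 1.13 without KM replicate 4 and 0.39 without KMS replicate 4. Its exons overlap those of Gm29254 on the same strand.

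Actn4, at chr7:28893248-28962340 on the minus strand, encodes alpha-actinin-4, a crosslinker of actin filaments that is made in nearly all cells and is needed in foot processes. Its level was 311, 335, 359, 401 and 387 CPM in KM replicates 1 to 5 and 514, 551, 569.8, 431 and 417 CPM in KMS replicates 1 to 5. All KMS libraries lay above all KM libraries, with 417 CPM in the lowest of KMS and 401 CPM in the highest of KM. It was the only one of the 8 genes whose groups did not overlap, against 4.79% of all genes tested. KM libraries averaged 358 ± 36.9 CPM and KMS libraries 497 ± 69.7 CPM (SD over 5 libraries each). The log2 fold change was 0.47 ± 0.21 (SE) and missed the threshold after adjustment, with an adjusted p of 0.250 in edgeR. Across the alternatives and with each library left out, its adjusted p ranged from 0.0767 in DESeq2 to 0.562, and the log2 fold change from 0.31 to 0.56. The lowest of these, 0.31 (adjusted p = 0.528 in edgeR), came from the fit with the Y-linked genes as a covariate. Its exons overlap those of Capn12 on the opposite strand, which had at most 36 reads per library against at least 4170 for Actn4.

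**Figure D1:**
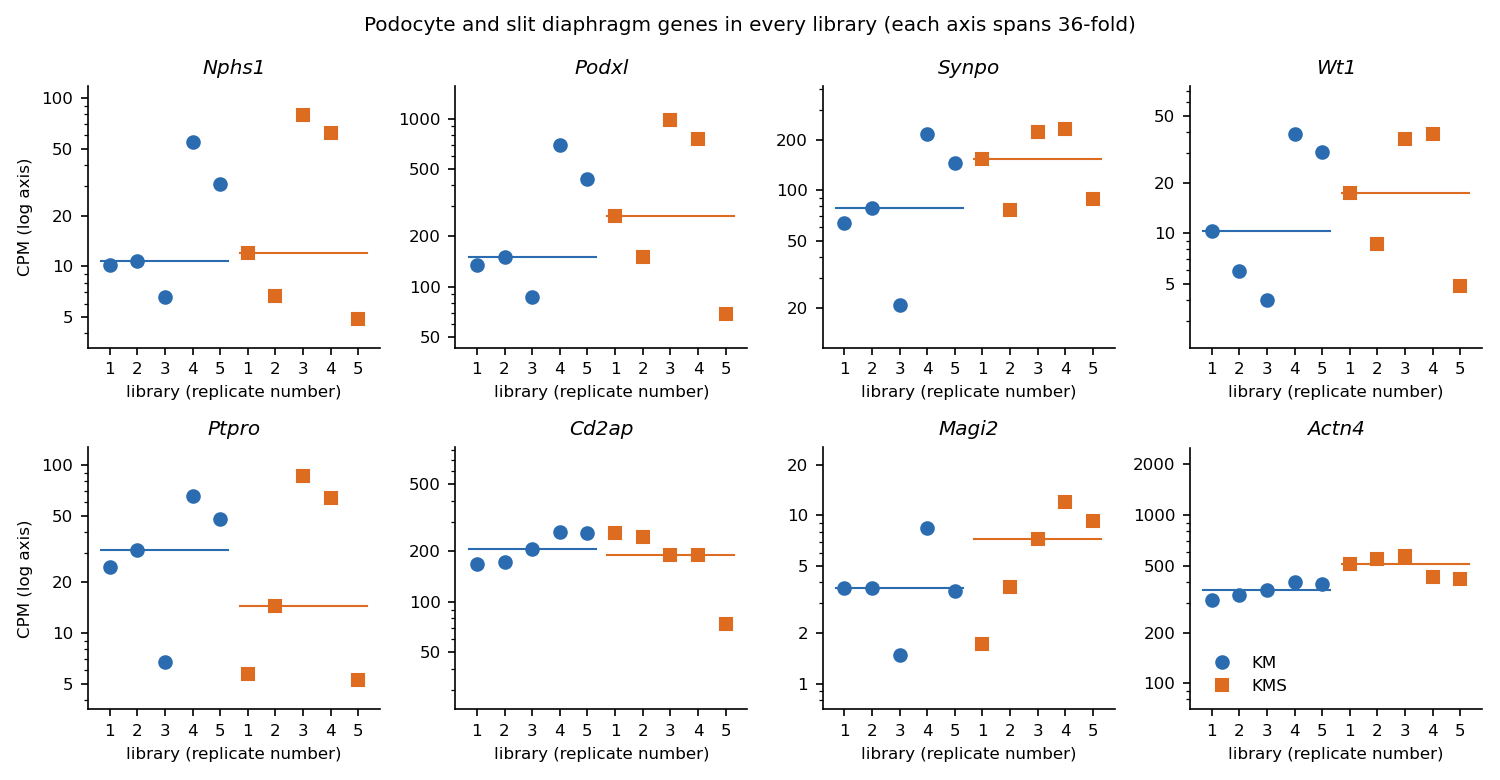
CPM (log axis) of each of the 8 genes in the 5 KM libraries (blue circles) and 5 KMS libraries (orange squares), with a line at the median of each group. KM replicates 4 and 5 and KMS replicates 3 and 4 hold the top 4 values of Nphs1 and Podxl, while Actn4 runs from 311 to 570 CPM with all KMS points above all KM points.

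**Figure D2:**
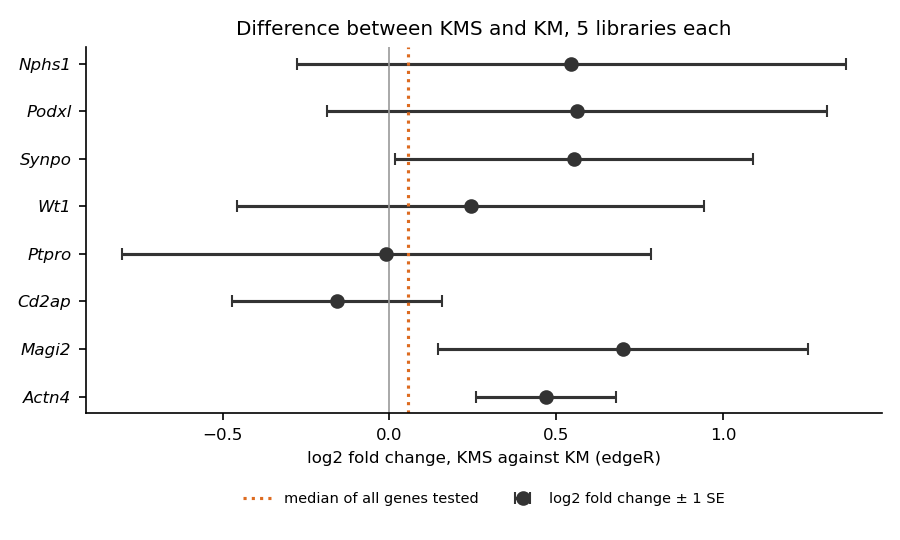
Log2 fold change of KMS against KM for each gene (points) with 1 standard error to each side (bars), from edgeR with 5 libraries per group. The dotted line is the median of all genes tested, 0.06, and the bars of Nphs1, Podxl, Wt1 and Ptpro are the longest.

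The 8 genes differed in how much they varied within a genotype. The SD of log2 CPM among KM libraries was 1.25 to 1.41 for Nphs1, Podxl, Synpo, Wt1 and Ptpro, larger than that of 96.3% to 97.7% of all genes tested, of which the median was 0.37. In KMS the SD was 1.83 for Nphs1, 1.60 for Podxl and 1.87 for Ptpro, larger than that of 95.5% to 97.8% of genes. It was 1.28 for Wt1 and 0.74 for Synpo in KMS, with a median over all genes of 0.66. Actn4 was at the other end, with an SD of 0.15 in KM and 0.21 in KMS, which only 9.43% and 3.27% of genes undercut. The highest library exceeded the lowest of the same genotype 8.35-fold in KM and 16.4-fold in KMS for Nphs1, against 1.29-fold and 1.37-fold for Actn4.

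Per kilobase of exon, the mean over the 10 libraries was 69.8 CPM for Actn4 and 68.0 CPM for Podxl. Synpo, at 13.6, and Cd2ap, at 12.7 CPM per kilobase, came next, and Ptpro, Nphs1 and Wt1 had 5.21, 4.20 and 3.16. Magi2 was lowest at 0.484 CPM per kilobase. Neighbours in this order overlapped in their range over libraries, down to Magi2, which reached 1.07 at most while the lowest value of Wt1 was 0.650. Actn4 and Podxl had nearly equal means with unequal spreads, from 50.7 to 93.0 for Actn4 and from 12.5 to 180 CPM per kilobase for Podxl. In bulk RNA, fewer cells of a type and less RNA per cell cannot be told apart.

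To see whether the genes kept a fixed proportion to nephrin, the reads of each were divided by those of Nphs1 in the same library, which cancels the scaling factor. Podxl had 12.3 to 14.2 reads per read of Nphs1 in 8 libraries, although Nphs1 itself spanned 16.4-fold over the same libraries. The ratio was higher in KMS replicate 1, at 22.0 (95% interval 19.4 to 25.01), and KMS replicate 2, at 22.3 (18.5 to 27.1), and both intervals lay above those of the other 8 libraries. Those intervals are exact Clopper-Pearson intervals and cover counting error only, since the reads carry no molecular identifiers. Summed markers of endothelium, which also makes podocalyxin, were 788 CPM in KMS replicate 1 and 300.4 CPM in KMS replicate 2, among 260.4 to 2047 CPM in all libraries, and their part in the ratio was not tested.

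Over the 10 libraries the ratio of Podxl to Nphs1 varied 1.82-fold. The ratio of Wt1 varied 3.17-fold, from 0.456 in KMS replicate 3 to 1.45 in KMS replicate 1. Ptpro ran from 0.475 reads per read of Nphs1 in KMS replicate 1 (95% interval 0.379 to 0.591) to 2.92 in KM replicate 2 (2.41 to 3.56), a 6.16-fold range that was 2.87-fold without KMS replicate 1. KMS replicate 1 was therefore high in Podxl and Wt1 and low in Ptpro for its level of Nphs1. Synpo varied 6.56-fold, from 2.77 in KMS replicate 3 to 18.2 in KMS replicate 5. The ratios of Actn4 and Cd2ap varied 12.3-fold and 15.3-fold. That of Magi2 varied 21.0-fold, and 6.21-fold without KMS replicate 5.

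**Figure D3:**
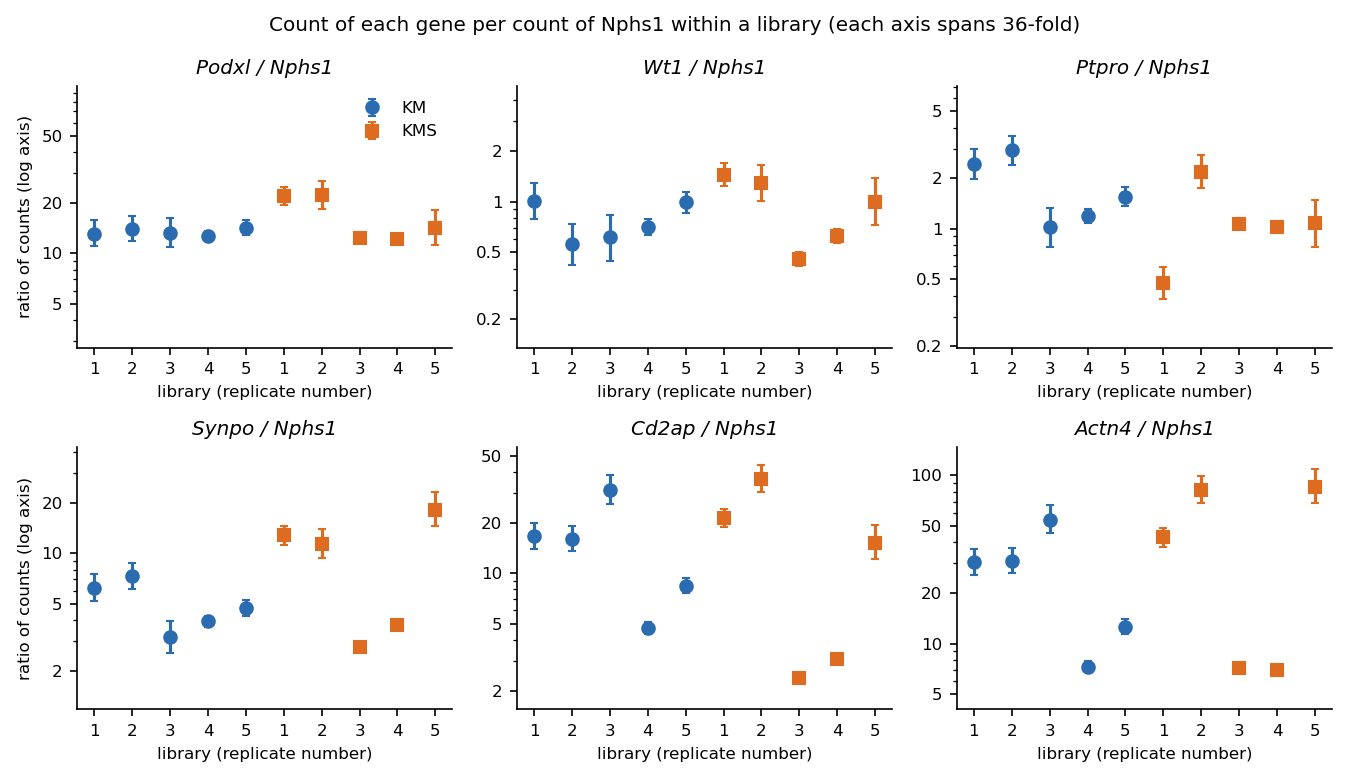
Reads of Podxl, Wt1, Ptpro, Synpo, Cd2ap and Actn4 per read of Nphs1 in each library (log axis), with exact 95% intervals for counting error, in KM (blue circles) and KMS (orange squares). Podxl stays between 12.3 and 14.2 except in KMS replicates 1 and 2, and Actn4 spreads 12.3-fold.

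Because Nphs1 fell into a low and a high set of libraries, its relation to the other 7 genes was tested within the 6 lower libraries (exact permutation test on log2 CPM, two-sided, Benjamini-Hochberg over 7 relations), a choice made after its values were seen. Podxl had a Pearson r of 0.85 with an exact p of 0.0236, which was 0.165 after adjustment, and a Spearman correlation of 0.94 with an exact p of 0.0167, adjusted 0.117. Without the 2 libraries farthest from the median, KMS replicates 1 and 5, its r was 0.53. Wt1 had an r of 0.70 and a Spearman correlation of 0.77, with an adjusted exact p of 0.457 and 0.360. None of the 7 relations passed after adjustment, and r lay between -0.50 for Magi2 and 0.59 for Cd2ap in the 5 genes other than Podxl and Wt1. Without the same 2 libraries r was 0.90 for Ptpro and -0.90 for Cd2ap, so single libraries decide these values. With 6 libraries over a narrow range of Nphs1, a relation that did not pass is not shown to be absent, and the 4 high libraries are too few to test. Over all 10 libraries the test passed for Podxl, Wt1, Ptpro and Synpo, and its r and p for these genes are not printed because the libraries fall into a low and a high set. The r values of the next paragraph, over the same libraries, carry that split and are a description.

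As a description, all 14955 genes with a mean of at least 1 CPM were ranked by the Pearson r of their log2 CPM with Nphs1 over the 10 libraries, taken as deviations from the genotype means. The points share the libraries, their depth and the split of Nphs1 into low and high. Ripply3 came first, followed by Robo2 at 0.99, which encodes a receptor of Slit ligands found in podocytes, then Cd200 at 0.99, and Rdh1 and Podxl at 0.98. Wt1 had an r of 0.94 at rank 91, Ptpro 0.90 at rank 218 and Synpo 0.84 at rank 525. Magi2 at 0.54, Cd2ap at 0.43 and Actn4 at 0.38 were not among the 797 genes, 5.33% of those ranked, with an r of at least 0.8.

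**Figure D4:**
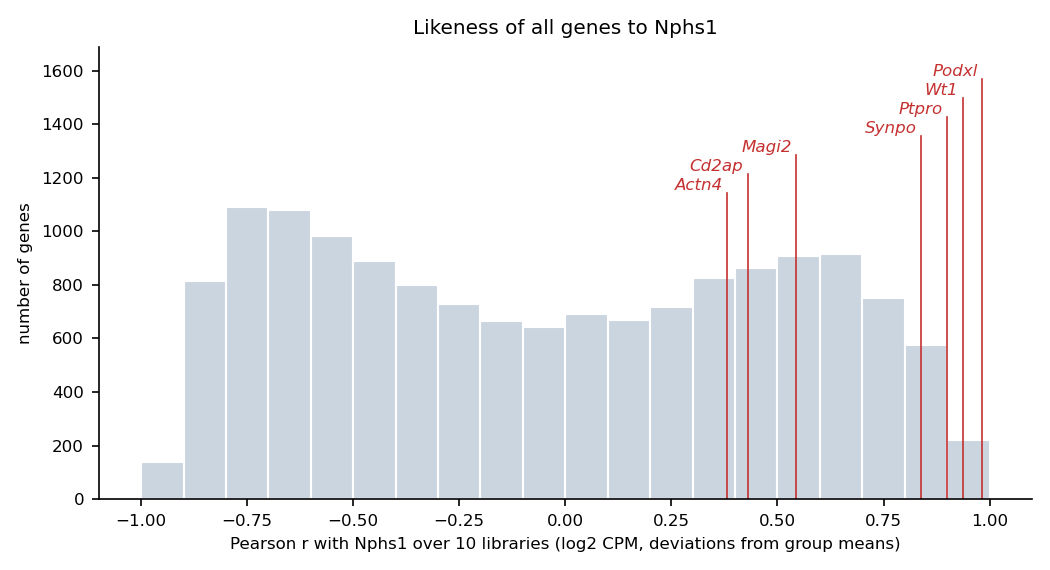
Number of genes (bars) by their Pearson r with Nphs1 over the 10 libraries, in log2 CPM as deviations from the genotype means, with red lines at the other 7 genes. Podxl at 0.98, Wt1 at 0.94, Ptpro at 0.90 and Synpo at 0.84 lie at the right edge, and Magi2, Cd2ap and Actn4 lie among the bulk of genes.

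Genes of the podocyte were also taken by list, and the lists include the 8 genes. Nphs1, Cd2ap and Magi2 are in the slit diaphragm list, and Synpo and Actn4 in the actin list. Podxl and Ptpro are in the apical list and Wt1 among the transcription factors. The counts of these lists are therefore not separate from the results above. Of 23 genes of the slit diaphragm and its signaling, 21 were tested and 0 were called, with 9 log2 fold changes above and 12 below 0 and a median of -0.08. Besides Nphs1, 6 of 19 genes ranked had an r of at least 0.8 with Nphs1, among them Kirrel, which encodes the nephrin relative Neph1, and the polarity gene Crb2. The 2 of 21 genes with an unadjusted p under 0.05, against 19.5% of all genes tested, were lower in KMS without passing adjustment. Fat1, a giant cadherin, was at 44.7 to 63.1 CPM in KM and 17.1 to 39.1 CPM in KMS, with a log2 fold change of -0.96 ± 0.25 (SE, adjusted p = 0.148 in edgeR). Pik3r1, a regulatory subunit of PI 3-kinase, was at 64.5 to 92.4 CPM in KM and 18.3 to 59.1 CPM in KMS, with -0.97 ± 0.27 (SE, adjusted p = 0.153 in edgeR). The groups did not overlap for these 2 of 21 genes, against 4.79% of all genes tested, and both are made by many kinds of cells.

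Among 16 genes of the foot process actin network, 8 log2 fold changes were above and 8 below 0, and 0 genes were called. Only 2 of the 16 had an r of at least 0.8 with Nphs1, among them Synpo. With unadjusted p under 0.05, as for 19.5% of all genes tested, Actn4, Cd151 and Arhgdia, at 0.63 ± 0.28 (SE, adjusted p = 0.243 in edgeR), were on the higher side. On the lower side were Vcl, which encodes vinculin, at -0.44 ± 0.18 (SE, adjusted p = 0.216 in edgeR) and Anln, anillin, at -1.10 ± 0.45 (SE, adjusted p = 0.226 in edgeR). Iqgap1, a scaffold that binds nephrin, had -0.34 ± 0.29 (SE, adjusted p = 0.542 in edgeR) in the slit diaphragm list. Itgb1, an integrin beta chain, had -0.15 ± 0.34 (SE, adjusted p = 0.848 in edgeR). Of the 7 apical genes 5 were above 0 and 0 were called. An r of at least 0.8 with Nphs1 was seen for 3 of the 7, among them Podxl and Ptpro. Ezr, which encodes the membrane-actin linker ezrin, was at 0.39 ± 0.23 (SE, adjusted p = 0.374 in edgeR). Slc9a3r1, its scaffold partner, was at 0.60 ± 0.28 (SE, adjusted p = 0.264 in edgeR).

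Podocyte transcription factors split evenly, with 5 of 10 log2 fold changes above 0, none called and 6 of 10 genes with an r of at least 0.8 with Nphs1. Tead1 was at -0.40 ± 0.24, Foxc1 at -0.46 ± 0.30 and Efnb1, an ephrin kept in this list, at 0.19 ± 0.23 (SE), with adjusted p of 0.380, 0.424 and 0.686 in edgeR. Of the genes of the glomerular basement membrane, 4 of 10 were above 0 and 0 were called. In this list 2 of 10 had an r of at least 0.8 with Nphs1. Col4a3, a collagen chain that podocytes lay down, had a log2 fold change of 0.07 ± 0.47 (SE, adjusted p = 0.952 in edgeR). Hspg2 (perlecan), Nid1 (nidogen) and Agrn (agrin) had log2 fold changes of -0.73, -0.60 and -0.11, with adjusted p of 0.400, 0.450 and 0.848 in edgeR. Secreted factors and other podocyte genes had 11 of 15 log2 fold changes above 0, a median of 0.31 and 0 calls, and 9 of 15 had an r of at least 0.8 with Nphs1. Vegfa, the growth factor that podocytes supply to glomerular endothelium, had an r of 0.96. Npnt, the integrin ligand nephronectin, had a log2 fold change of -0.36 and Cdkn1c, the cell cycle inhibitor p57, of 0.82, with adjusted p of 0.615 and 0.465 in edgeR. At unadjusted p under 0.05, as for 19.5% of all genes tested, Bmp7 was higher at 0.86 ± 0.21 (SE, adjusted p = 0.131 in edgeR). Mme, which encodes neprilysin and is also a proximal tubule gene, was lower at that level, at -1.10 ± 0.33 (SE, adjusted p = 0.166 in edgeR).

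The cell types in each library were read from marker lists. All 12 defining podocyte markers had reads in all 10 libraries. Among the 12 are Nphs1, Podxl, Synpo, Wt1 and Ptpro, so the list is not a readout separate from these genes. The markers summed to 208 to 1761 CPM in KM, with a median of 504, and 322 to 2474 CPM in KMS, with a median of 679. That sum differed 11.9-fold between the highest and the lowest library, with 0 of 12 markers called. Markers of other cells were present too, in libraries that the labels describe as tubular epithelial. The 10 endothelium markers summed to 353 to 1712 CPM in KM and 260.4 to 2047 CPM in KMS, and were highest in the same 4 libraries as Nphs1, with 7 of 10 at an r of at least 0.8. The 8 mesangial markers summed to 158 to 654 CPM in KM and 167 to 447 CPM in KMS, and 3 of them had such an r, among them Itga8. Log2 fold changes were above 0 for 9 of the 12 podocyte markers (median 0.55), for 1 of the 8 mesangial markers (median -0.68) and for 3 of the 10 endothelium markers (median -0.09), with none called. With 1 library at a time left out, the podocyte median ranged from 0.06 to 1.07 and the mesangial median from -0.89 to -0.31. The endothelium median ranged from -0.70 to 0.25.

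The 4 libraries high in Nphs1 were also those with the largest mitochondrial share, 20.4% to 26.7% of counts against 4.26% to 14.6% in the other 6, and the part of this in the levels of the podocyte genes was not tested. The sum of the 6 genes listed for parietal epithelium, the capsule around the glomerulus, was 599 to 798 CPM in KM and 661 to 879 CPM in KMS. Of these genes, 0 of the 6 had an r of at least 0.8 with Nphs1. Cldn2 alone held 298 to 398 CPM of the sum in KM and 183 to 600 CPM in KMS, and whether the sum reads capsule cells was not tested. Proximal tubule markers other than Kap summed to 4760 to 6287 CPM in KM and 1676 to 11906 CPM in KMS, lowest in KMS replicates 1 and 2. Without Kap, the highest sums were in KMS replicates 3 and 4, at 11906 and 9008 CPM, which were also high in Nphs1. KM replicates 4 and 5, high in Nphs1 too, had the lowest sums of KM, at 4760 and 4799 CPM. Of the 10 proximal tubule markers, 3 had an r of at least 0.8 with Nphs1, as many as of the mesangial markers. Kap itself ran from 51.8 CPM in KMS replicate 3 to 14176 CPM in KMS replicate 5. With Kap, the sum was highest in KMS replicates 4 and 5, at 21808 and 20496 CPM, and was 11958 CPM in KMS replicate 3. Taken as deviations from the genotype means, the r of the log2 sum with Nphs1 was 0.51 without Kap and 0.01 with it. All 10 proximal tubule markers were above 0 counts in every library, with 6 log2 fold changes above 0 and none called. The 8 markers of thick ascending limb and distal tubule had 6 above 0 and none called, and the 9 collecting duct markers had 7 below 0 and none called, with sums of 496 to 1244 CPM in KM and 347 to 754 CPM in KMS.

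Fibroblast and immune markers were mostly at lower levels in KMS. The fibroblast and pericyte list had 9 of 9 log2 fold changes below 0, with a median of -1.64 and 1 gene called, Lum, the proteoglycan lumican, at -3.44 (adjusted p = 0.0233 in edgeR). Its sum was 234 to 629 CPM in KM and 100.5 to 263 CPM in KMS. The list of macrophage, T and B cells had 12 of 12 below 0, a median of -1.60 and 0 calls, with 238 to 752 CPM in KM and 97.5 to 349 CPM in KMS. CPM values are shares of a library, and the part of this difference in the level of Actn4 and the other genes was not tested.

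**Figure D5:**
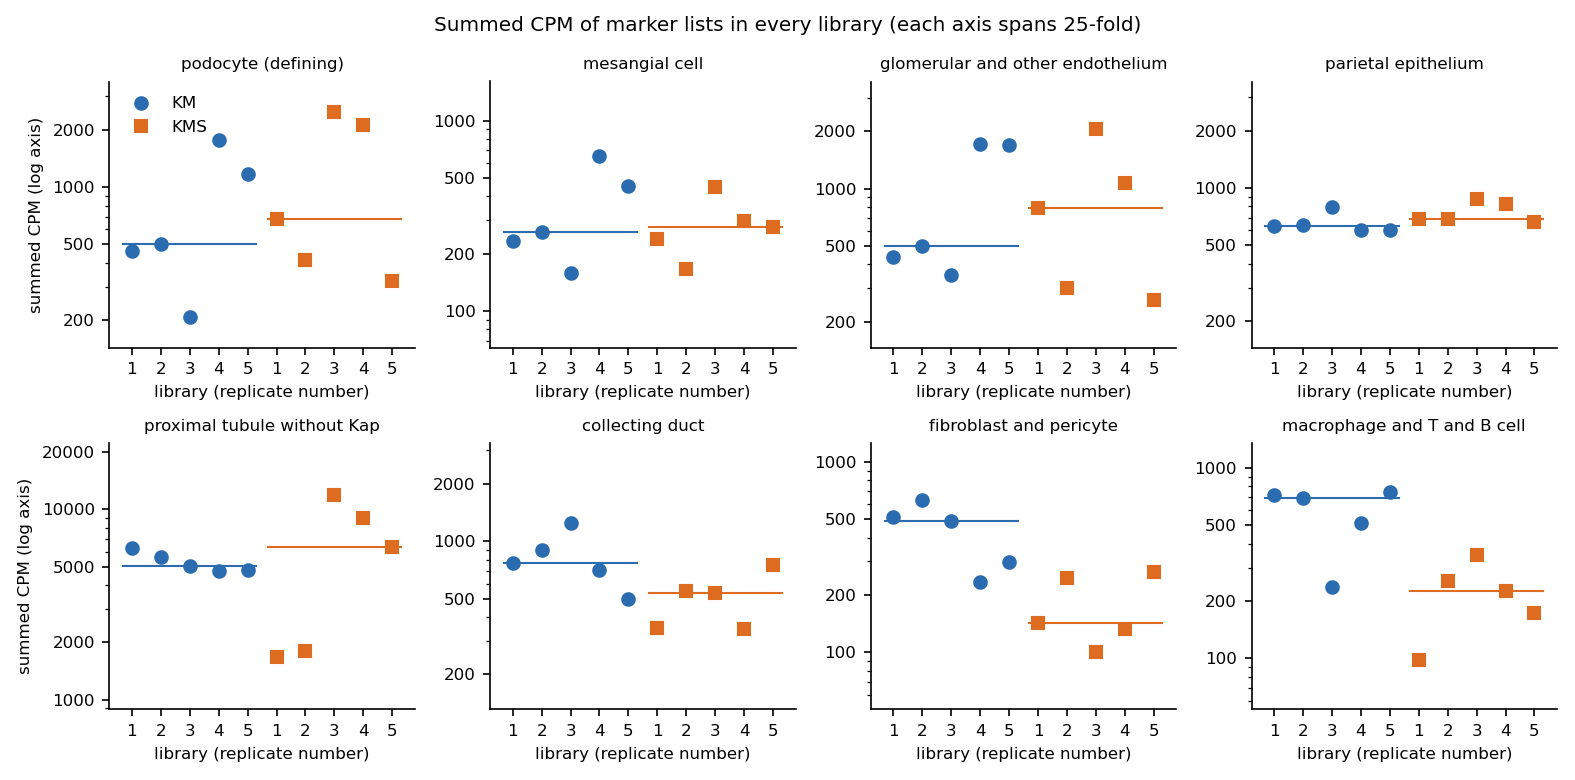
Summed CPM (log axis) of 8 marker lists in the 5 KM libraries (blue circles) and 5 KMS libraries (orange squares), with a line at each group median. Podocyte and endothelium sums are high in KM replicates 4 and 5 and KMS replicates 3 and 4, and the parietal epithelium sum stays between 599 and 879 CPM.

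Promoter windows of RefSeq (GRCm38.p6, 250 bases before to 50 after a start site) were matched for 5 of the 8 genes, in 6 windows. The 2 windows shown are of Ptpro, which was among the genes most like Nphs1, and of Actn4, which was even over the libraries, each up to the first exonic base. Capitals mark CpG pairs and, in Actn4, one match to a motif described next.
Ptpro, chr6:137252049-137252298, plus strand: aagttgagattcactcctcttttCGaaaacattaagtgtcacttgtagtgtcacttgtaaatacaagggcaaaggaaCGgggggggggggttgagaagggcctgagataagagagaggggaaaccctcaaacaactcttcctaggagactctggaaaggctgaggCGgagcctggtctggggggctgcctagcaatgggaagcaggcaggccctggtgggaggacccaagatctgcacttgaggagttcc
Actn4, chr7:28962341-28962582, minus strand: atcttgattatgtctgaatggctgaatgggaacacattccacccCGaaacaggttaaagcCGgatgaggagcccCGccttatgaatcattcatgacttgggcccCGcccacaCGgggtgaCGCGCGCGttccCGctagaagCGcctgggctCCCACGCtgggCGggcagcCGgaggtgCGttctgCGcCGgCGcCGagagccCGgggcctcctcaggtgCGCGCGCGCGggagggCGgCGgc

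In the full windows, Actn4 had 35 CpG pairs and Cd2ap 41, more than 93.0% and 96.5% of all 32851 promoter windows, of which the median was 7. Ptpro had 5 and Nphs1 6 CpG pairs, more than 38.0% and 43.6% of windows, and the window of Nphs1, at chr7:30459808-30460107, lies inside the gene as annotated by GENCODE and not before its start. Of the 2 windows of Magi2, one had 29 and the other 4. GCGTGGG, a form bound by the EGR and WT1 family, was found on either strand in Actn4 (as its complement CCCACGC) and in the CpG-rich window of Magi2, and in 5.04% of all windows. The homeodomain core TAATTA was found in the other window of Magi2 and in 5.29% of all windows, and the E-box CAGCTG in the CpG-rich window of Magi2 and in Cd2ap and in 16.3% of all windows. None of the 3 motifs overlapped another, and none was found in Nphs1 or Ptpro.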

How the data were processed

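Total RNA from 5 KM and 5 KMS mice was made into directional polyadenylated-RNA libraries and sequenced as 150-base pairs by the authors. Reads were cleaned, aligned to GRCm38 with HISAT2 2.2.1 and HTSeq was used to count them by gene. The HTSeq version and whether it used strand were not stated in the labels or methods. The submitters' processing notes also name cutadapt 1.9.1, Trimmomatic 0.35, FastQC, StringTie and MACS2 2.1.1. The authors deposited whole-number counts per gene, not normalized, for 10 libraries, and 0 further sample columns. Their columns of log2 fold change, p-value and FDR were not used. The RUVSeq step named in the methods is given without variant or factors and was run only as an alternative.

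Groups came from the genotype labels. Counts were tested in R 4.3.3 with edgeR 4.0.16 (TMM, filterByExpr, quasi-likelihood, no covariate, Benjamini-Hochberg over 15728 genes). DESeq2 1.42.0 and limma 3.58.1 (voom), other scalings and filters, a replicate block, 1 RUVg factor, a covariate from Y-linked genes and leaving out each library were alternatives. Log2 CPM used a prior count of 3. The fit was tested on simulated data. Libraries of 1 group are from separate mice by the study's methods.

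The members and gene lists were chosen with earlier results of these data known. Named genes are the 8 members, Cdkn1c, the 2 genes of lowest p and the 2 of highest mean CPM in each pathway list. The 5 genes most like Nphs1 and the most abundant marker of each cell type were taken as well. Apart from Podxl, Cldn2, Krt19 and Kap, that marker is given only as part of its list's sum. Kirrel, Crb2, Cd151, Itga8, Lad1 and Lum were added after their values were seen, and some genes under the rule are left out of the text. Adgre1 and Lrrn4 were not in the table, and Kirrel2 and Kirrel3 were not tested.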

Additional observations from a re-analysis of the deposited data

Results flagged for a closer look

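Of 36 sets of 5 libraries examined (levels of the 8 genes and sums of 10 marker lists, in each genotype), 1 had a library far from the others. The summed level of the parietal epithelium markers was 798 CPM in KM replicate 3, against 599 to 636 CPM in the other 4 KM libraries, a gap of 0.815 of the range where 0.71 is the limit at 95%. Chance alone puts about 1 in 20 such sets past that limit. In that library the podocyte marker sum was the lowest of all 10, at 208 CPM. Cldn2 was 398 CPM there, against 298 to 352 CPM in the other 4 KM libraries. Lad1, also in the list, was 220 CPM there, against 115 to 139 CPM in the other 4. Whether the parietal sum reads capsule cells was not tested.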

How the results depend on the processing

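None of the 8 genes was called under any alternative. Of 160 fits of single genes, 147 kept the direction and 13 reversed it, Ptpro, at -0.01, was 0.013 with RLE factors, 0.014 with DESeq2 and 0.039 with 1 RUVg factor. It moved most with the replicate block, to -0.82, and with voom, to -0.54, and the same fits gave 0.03 and 0.15 for Nphs1. Leaving out 1 library at a time, its log2 fold change ranged from -0.65 to 0.34, that of Nphs1 from -0.080 to 1.18, of Wt1 from -0.085 to 0.75 and of Cd2ap from -0.28 to 0.082. The number of all genes called, 16, was 25 with upper-quartile factors, 1072 with DESeq2, 33 with voom, 602 with the likelihood ratio test, 1000 with RUVg, 7 with the Y-linked covariate and 9 to 42 with 1 library left out (42 without KMS replicate 2, 9 without KM replicate 2 or KMS replicate 1). Upper-quartile factors moved the median of all genes to -0.09. With a replicate block 2 genes were called. Libraries with the same number deviated together in no consistent way (r from -0.44 to 0.14), no library correlated best with its own number, and the labels give no shared source, so the samples share only a number. Over all 10 libraries 4 of 7 relations with Nphs1 passed, and 0 of 7 in the 6 lower libraries, where r was -0.50 for Magi2 and -0.17 for Actn4. The r with Actn4 over the libraries ranged from -0.019 to 0.48 with 1 library left out, and that with Magi2 passed, at 0.81, without KMS replicate 5. With 5 libraries per group, the SD of log2 CPM of 1.25 to 1.41 for 5 of the genes in KM limits which differences could be called. At 25 to 220 reads per library, Magi2 also carries the most counting error.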
